A study of Mus musculus with 20 samples.

Results

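The variable segments of the mouse immunoglobulin heavy chain, the Ighv segments, were counted in bulk RNA of ovarian tumours grown in mice under 6 treatments. A segment was taken as a member when its GRCm38 gene symbol began with Ighv and its reads summed to at least 10 over the 20 libraries. Of 185 annotated Ighv entries (113 V genes, 2 LV genes and 70 pseudogenes), 115 met this rule, among 55406 genes in the count table. The 115 comprised 102 V genes and 13 pseudogenes. Of the 70 left out, 58 had no read in any library and 12 had fewer reads than the rule asks. The nearest entries outside the rule held 9 reads each (Ighv2-7, Ighv1-62, Ighv1-43 and the LV gene called Ighv1-13), and the nearest inside held 11 (Ighv12-2) and 12 (Ighv11-1 and Ighv6-4).

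All tumours came from luciferase-expressing ID8 derivative cells of genotype ID8 Trp53-/-Brca1-/-, a mouse ovarian cancer line injected into the peritoneum of C57/BL6 female mice, so that untreated tumours carried the same deletions as treated ones. The labels do not say whether the line is a single clone, and the hosts keep their own B cells. The groups were untreated mice (3 libraries), olaparib, a PARP inhibitor given by mouth at 40 mg/kg/day (3), immune checkpoint blockade, here ICB, with 100 µg of anti-CTLA-4 and 200 µg of anti-PD-L1 antibody (3), olaparib with ICB (3), olaparib with 20 µg of anti-VEGFA antibody (4), and olaparib with ICB and anti-VEGFA, here the full combination (4). Each library was labelled as a mouse of its own.

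An immunoglobulin heavy chain gene is built in a developing B cell by joining 1 Ighv segment to a D and a J segment. The joined exon is transcribed with a constant region such as Ighm, which encodes the mu chain of IgM, or, after class switching, Igha or an Ighg gene, which encode the chains of IgA and IgG. Plasma cells transcribe this product at very high levels, so the segments seen in tissue RNA mostly report which heavy chains its antibody-secreting cells make. Ighv11-2 and Ighv12-3 are known from B-1 cells that bind phosphatidylcholine, Ighv7-1 from natural antibodies to phosphorylcholine, Ighv5-2 from the fetal repertoire, and Ighv1-72 from the response of C57BL/6 mice to the hapten NP.

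The last 300 bases of the coding V exons of the segments on which the results turned are printed 5′ to 3′ from GENCODE M21 transcripts (GRCm38, chromosome 12, minus strand). For Ighv11-2 (chr12:114048241-114048540), Ighv4-1 (chr12:113948282-113948581), Ighv3-6 (chr12:114288152-114288451) and Ighv5-17 (chr12:113859149-113859448), capitals mark the codon of the conserved cysteine near the 3′ end, where the joint to the D segment begins. Ighv11-2 and Ighv4-1 were called higher with ICB on average over the treatments it was added to, although libraries with and without ICB overlapped. For Ighv11-2 the change with ICB alone did not pass the test. Ighv3-6 took the largest share of any library, and Ighv5-17 had the largest mean share.
Ighv11-2: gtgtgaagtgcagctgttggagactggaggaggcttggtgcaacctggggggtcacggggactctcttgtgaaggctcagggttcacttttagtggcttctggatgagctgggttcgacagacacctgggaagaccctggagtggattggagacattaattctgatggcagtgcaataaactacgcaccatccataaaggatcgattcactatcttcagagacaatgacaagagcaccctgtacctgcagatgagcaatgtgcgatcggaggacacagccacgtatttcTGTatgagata
Ighv4-1: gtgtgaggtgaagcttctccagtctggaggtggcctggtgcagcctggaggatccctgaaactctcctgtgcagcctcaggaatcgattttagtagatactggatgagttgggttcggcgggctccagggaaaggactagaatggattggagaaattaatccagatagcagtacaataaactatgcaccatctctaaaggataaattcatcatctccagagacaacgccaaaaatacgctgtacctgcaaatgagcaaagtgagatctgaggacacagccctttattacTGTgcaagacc
Ighv3-6: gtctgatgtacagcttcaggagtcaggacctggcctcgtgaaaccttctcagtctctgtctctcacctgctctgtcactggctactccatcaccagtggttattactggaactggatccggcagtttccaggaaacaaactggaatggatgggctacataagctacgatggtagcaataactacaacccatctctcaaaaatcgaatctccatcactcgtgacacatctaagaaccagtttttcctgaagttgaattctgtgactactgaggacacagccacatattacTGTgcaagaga
Ighv5-17: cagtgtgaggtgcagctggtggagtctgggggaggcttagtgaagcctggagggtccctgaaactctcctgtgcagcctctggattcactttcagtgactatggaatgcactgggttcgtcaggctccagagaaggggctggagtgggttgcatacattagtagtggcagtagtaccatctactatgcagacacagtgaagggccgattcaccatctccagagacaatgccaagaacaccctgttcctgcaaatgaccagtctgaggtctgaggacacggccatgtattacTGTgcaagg
Ighv1-80 (chr12:115912344-115912643) and Ighv1-82 (chr12:115952538-115952837) are shown because each led libraries and they are close relatives: capitals mark the 12 bases at which they differ, an identity of 96.1% over the whole coding V exon.
Ighv1-80: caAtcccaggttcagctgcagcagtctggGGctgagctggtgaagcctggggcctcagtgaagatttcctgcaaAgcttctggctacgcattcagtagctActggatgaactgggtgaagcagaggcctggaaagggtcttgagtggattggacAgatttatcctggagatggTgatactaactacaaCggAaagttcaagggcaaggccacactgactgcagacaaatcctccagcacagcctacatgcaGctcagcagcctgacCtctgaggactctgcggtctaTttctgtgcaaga
Ighv1-82: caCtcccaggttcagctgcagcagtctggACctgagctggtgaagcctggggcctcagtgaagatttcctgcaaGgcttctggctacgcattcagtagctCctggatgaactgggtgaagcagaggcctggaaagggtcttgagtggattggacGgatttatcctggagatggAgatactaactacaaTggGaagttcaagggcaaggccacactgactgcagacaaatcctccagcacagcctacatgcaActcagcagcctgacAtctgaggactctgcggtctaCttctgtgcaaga
Such likeness was common. Of the 102 V genes, 56 had another Ighv entry at 95% identity or more over the coding V exon, 14 had one at 98% or more, and Ighv1-62-2 and Ighv1-71 were identical. Ighv1-72 differed from Ighv1-62-3 at 3 bases and Ighv11-2 from Ighv11-1 at 4 bases. How the authors' counting divided reads between such copies is not given in the sources used here, so values of single segments with a close copy are uncertain.

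Library totals ran from 26863893 to 34663888 reads, of which 23565 to 222615 fell in Ighv segments. The controls had the fewest Ighv reads (23565, 23882 and 29912). The tumour label was met by its epithelial markers (Msln, Krt7, Krt8, Krt18 and Wt1), whose mean level was 7.28 to 8.03 log2 CPM, where CPM is the read count scaled to the TMM-adjusted library size. Pancreatic acinar genes stood apart in 4 libraries, ICB replicate 3, replicates 1 and 4 of olaparib with anti-VEGFA, and replicate 2 of the full combination, at 4.02 to 8.72 log2 CPM against -2.19 to 1.09 in the other 16. A score of 3 RNAs taken here as signs of library quality (Rn7sk, Lars2 and Mir6236) was 4.47 to 4.82 log2 CPM in untreated tumours. It was 2.74 to 3.08 with ICB alone and 2.72 to 4.63 over all 17 treated libraries. This RNA quality score was not checked against a measured quality.

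Summed Ighv RNA was higher in every treated tumour than in every untreated tumour. It was 742, 802 and 989 CPM in the 3 untreated tumours. Olaparib gave 3412, 3942 and 2343 CPM, and ICB gave 2227, 2700 and 2342 CPM. Group means were 844.3 ± 129 CPM (SD, n = 3) without treatment, 3232 ± 815 with olaparib (3.83 times the untreated mean) and 2423 ± 247 with ICB (2.87 times). Olaparib with ICB gave 4996, 3215 and 5432 CPM, a mean of 4547 ± 1170 (5.39 times). Olaparib with anti-VEGFA gave 4697, 2644, 3764 and 4252 CPM, a mean of 3839 ± 883 (SD, n = 4; 4.55 times). The full combination spread most widely, at 4577, 2185, 7204 and 3090 CPM, a mean of 4264 ± 2190 (SD, n = 4; 5.05 times). The treated groups overlapped one another, and tumours with ICB (median 3153, 2185 to 7204 CPM) overlapped those without (median 3028, 742 to 4697). In bulk RNA, fewer cells of a type and less RNA per cell cannot be told apart. No test was made on this sum, which is a score over the members.

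The heavy chain constant regions that follow these segments differed more clearly by ICB. Ighm was 2921 to 19234 CPM in the 10 tumours with ICB (median 8940) and 658 to 2411 CPM in the 10 without (median 1314), with no overlap. Averaged over the 3 backgrounds in which ICB was added (none, olaparib, olaparib with anti-VEGFA), Ighm rose by 2.86 ± 0.23 on the log2 scale (adjusted p 3.735e-06, edgeR quasi-likelihood test adjusted by Benjamini-Hochberg over 18144 genes). Of the 8 constant region genes, 3 were called higher in this contrast and 0 lower (7.26% and 6.88% of all genes). Igha changed by 0.49 ± 0.32 (adjusted p 0.328) and Ighg2c, an IgG chain, by 0.09 ± 0.32 (adjusted p 0.881). Mean Ighg1, another IgG chain, was 239 CPM without treatment and 933 with ICB. It was 388 with olaparib and 1377 with olaparib and ICB, and 396 with olaparib and anti-VEGFA and 1123 with the full combination. Mean Ighg2b was 427, 1080 and 1097 CPM without ICB and 549, 832 and 903 CPM with it, in the same order. As a share of all constant region CPM, Ighm was 24.2 ± 8.0% in untreated tumours, 9.15 ± 2.23% with olaparib and 13.6 ± 5.20% with olaparib and anti-VEGFA, against 41.0 ± 17.5%, 56.4 ± 16.8% and 47.3 ± 25.7% in the matching groups with ICB. Summed Ighv CPM equalled 20.1 ± 2.49% of the constant region CPM without treatment, 28.1 ± 4.51% with olaparib and 27.3 ± 4.23% with olaparib and anti-VEGFA, but 18.1 ± 3.10%, 18.3 ± 1.92% and 18.8 ± 4.74% with ICB in the same order.

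**Figure D1:**
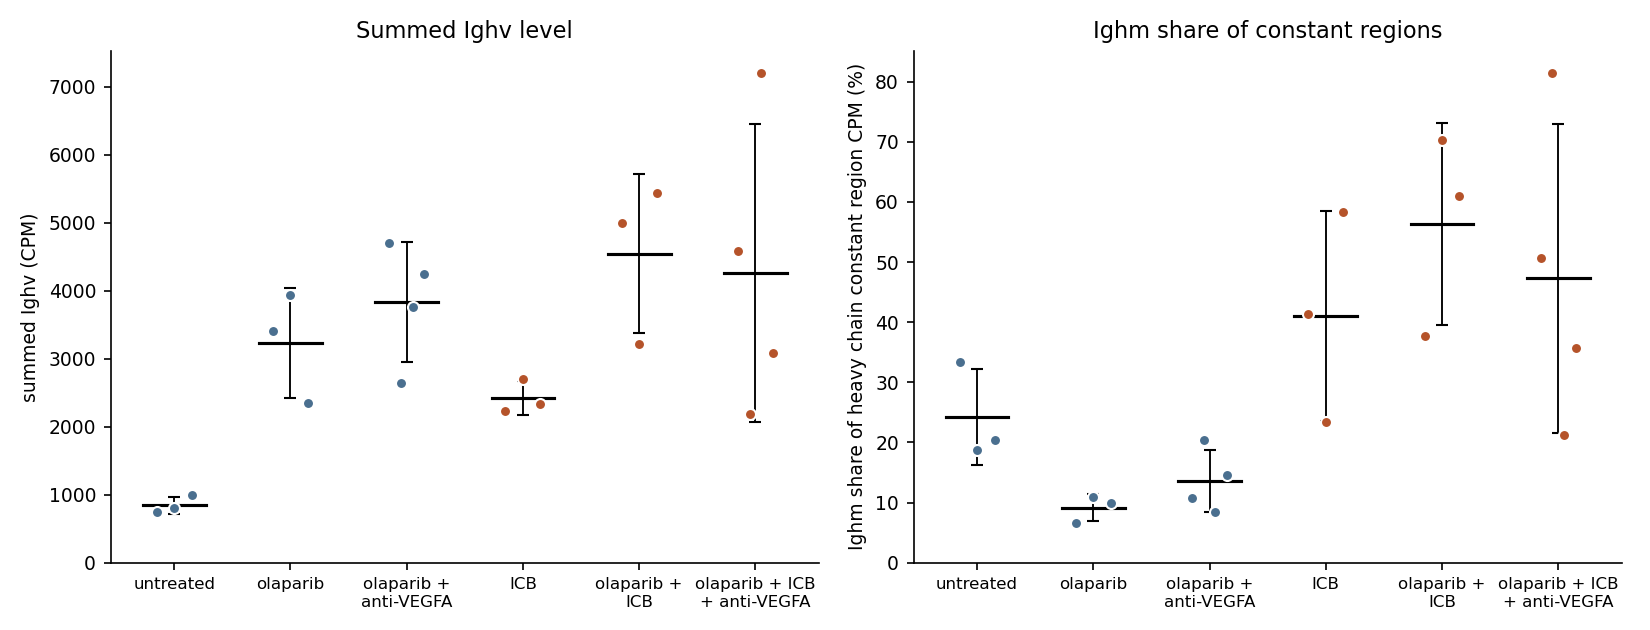
Summed Ighv CPM (left) and Ighm as a percentage of the summed heavy chain constant region CPM (right) in each library, by treatment group. Points are libraries, lines group means and bars 1 SD; rust points had ICB and blue points did not. All 17 treated libraries lie above the 3 untreated ones on the left, and on the right the group means run from 9.15% to 56.4%.

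Plasma cell genes moved with the sum. The mean level of 10 plasma cell genes was 3.92 to 4.34 log2 CPM in untreated tumours and 4.89 to 6.22 in the other groups, and none of the 10 failed the filter on low counts. In the ICB contrast averaged over 3 backgrounds 9 of the 10 rose (7.26% of all genes were called higher and 6.88% lower), among them Jchain, which joins IgM and IgA into polymers, by 0.80 ± 0.20 (adjusted p 0.0135) and Mzb1, a chaperone of antibody secretion, by 0.93 ± 0.21 (adjusted p 0.0087). Of 10 B cell genes 3 rose, Cd79a by 0.66 ± 0.19 (adjusted p 0.0273), while the surface marker Ms4a1 (0.15 ± 0.21, adjusted p 0.676) did not pass the test. Of 7 genes of lymphoid stroma and high endothelial venules 4 were tested, and Cr2, a complement receptor of B cells and follicular dendritic cells, fell by 1.57 ± 0.32 on the log2 scale (adjusted p 0.00451 by edgeR). Cxcl13, a chemokine that attracts B cells, was 5.15 to 51.0 CPM with ICB and 10.4 to 76.7 CPM without, and Madcam1 was 6.04 to 20.4 and 8.72 to 24.3 CPM. Ccl19 and Ccl21a are listed at 0 in all 20 libraries, and whether this means absent RNA was not tested.

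More segments were in use in tumours with ICB, whatever else the mice received. Between 72 and 89 of the 115 segments had at least 10 reads in the 10 libraries with ICB, against 43 to 66 in the 10 without. Group means were 45.0 ± 2.65 without treatment and 76.0 ± 4.00 with ICB, 56.0 ± 6.0 with olaparib and 83.0 ± 3.46 with olaparib and ICB, and 56.8 ± 7.04 with olaparib and anti-VEGFA and 82.3 ± 6.18 with the full combination. Because a library with more Ighv reads shows more segments, every library was also reduced in calculation to 23565 Ighv reads, the smallest number in any library. At that depth 53.3 to 75.3 segments were expected to hold at least 10 reads with ICB (median 61.5) and 34.6 to 51.3 without (median 43.4). The expected number with any read was 84.7 to 94.7 against 62.9 to 77.2. The ranges did not overlap for any of these 3 counts. Leaving out the 4 libraries that held acinar RNA could not make them overlap, so that is no test of acinar RNA. Over all genes, by contrast, the number with at least 10 reads overlapped (16694 to 17153 with ICB, 16552 to 17078 without). Among tumours without ICB, the untreated ones had both the fewest Ighv reads (23565 to 29912) and the lowest mean number of segments (45.0). The RNA quality score overlapped between tumours with ICB (2.74 to 4.63 log2 CPM) and without (2.72 to 4.82), as did the plasma cell score (5.18 to 6.22 and 3.92 to 5.82), and their part in these counts was not tested.

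The balance among segments was described in the same way. The effective number of segments, the number of equally used segments that would give the same Shannon entropy, was 17.0 ± 0.81 without treatment and 27.6 ± 7.16 with ICB, 15.7 ± 8.40 with olaparib and 21.3 ± 6.41 with olaparib and ICB, and 16.7 ± 3.76 with olaparib and anti-VEGFA and 23.9 ± 2.58 with the full combination. Here the libraries overlapped (14.3 to 33.9 with ICB, 7.07 to 23.8 without). Evenness, the entropy as a fraction of its maximum, was 0.584 to 0.768 with ICB and 0.449 to 0.714 without. Segments at 0.1% or more of a library's Ighv reads numbered 40 to 61 with ICB and 29 to 44 without, and segments at 1% or more 17 to 27 and 10 to 21, so that both ranges overlapped. Between 3 and 10 segments made up the first 50% of Ighv reads with ICB, and 1 to 6 without.

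**Figure D2:**
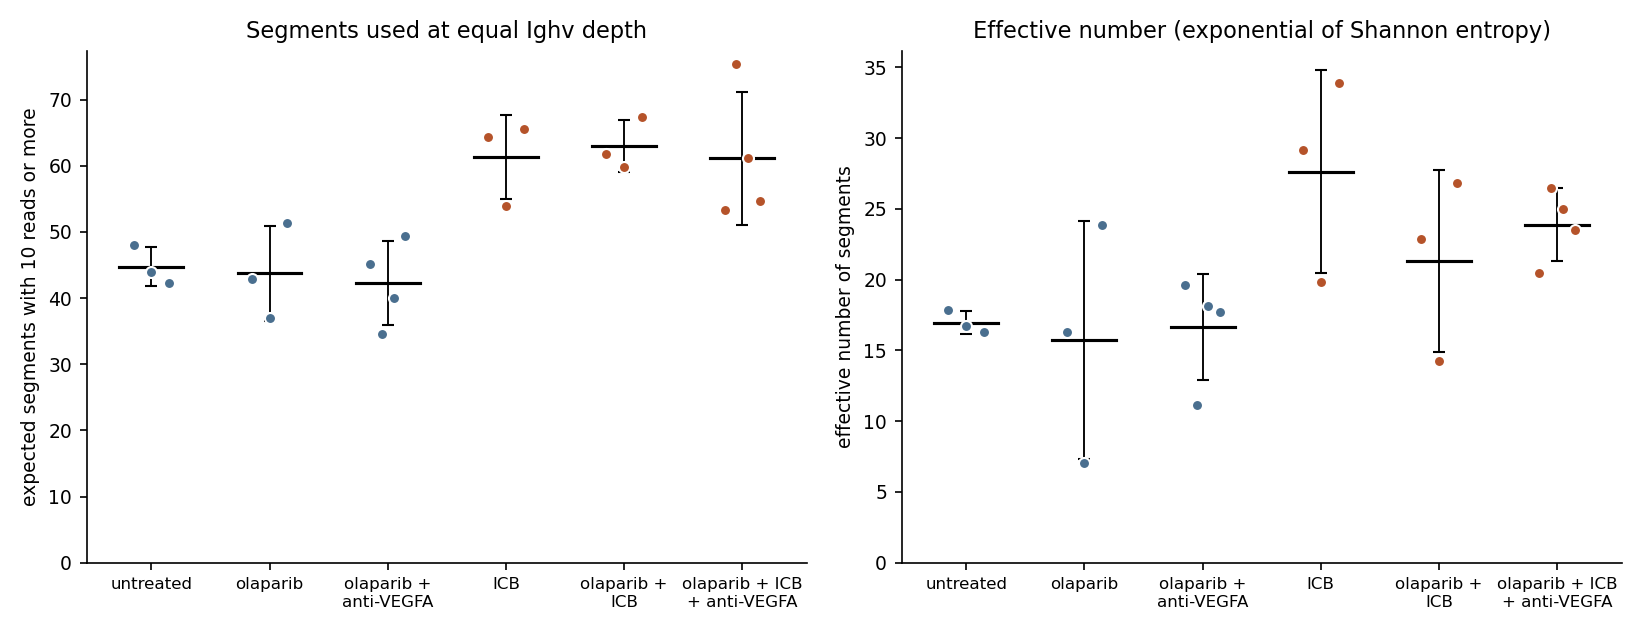
Expected number of Ighv segments with at least 10 reads after each library is reduced to 23565 Ighv reads (left), and effective number of segments (right), per library. Points are libraries, lines means and bars 1 SD; rust points had ICB. On the left the lowest library with ICB (53.3) lies above the highest without (51.3); on the right the ranges overlap.

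The pseudogenes contributed at most 0.487% of Ighv reads in a library, in ICB replicate 2, and none in untreated replicate 2.

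Which segment led differed from mouse to mouse. In 20 libraries 12 segments held the largest share of Ighv reads, 7 of them in a single library, and correction for exonic length (295 to 480 bases, median 353) left the leader the same in 20 of 20. Ighv3-6 made up 50.4% of Ighv reads in olaparib replicate 2 (1989 CPM), but 0.114% in untreated replicate 3 (1.12 CPM), and its median over the 20 libraries was 0.780%. Ighv11-2 made up 38.6% in replicate 2 of olaparib with ICB (1242 CPM), and led replicates 1 and 2 of the full combination at 19.8% and 18.1%. Ighv1-81 led replicates 2 (25.3%) and 3 (19.4%) of olaparib with anti-VEGFA, and Ighv2-5 led replicate 4 of that group at 23.5%. The leader of a library thus took from 11.2% (Ighv14-4 in olaparib replicate 3) to 50.4%. Counting error was small beside these differences: the widest 95% Wilson interval of any segment's share in a library reached 0.482 percentage points either side, and it covers counting error alone, since reads without molecular identifiers are not independent molecules.

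A few segments were common in most mice without leading every library of a group. Ighv5-17 had the largest mean share, 7.63% over the 20 libraries, and led untreated replicates 2 (17.5%) and 3 (18.3%) and replicate 1 of olaparib with anti-VEGFA (14.1%). Its lowest share was 1.55%, in replicate 2 of the full combination. Its CPM ranged from 33.8 to 535 with ICB (median 181) and from 74.1 to 662 without (median 182), and these ranges overlapped for most libraries. Ighv14-2 led 3 libraries in 3 different groups, at 16.5% (ICB replicate 2), 19.5% (olaparib replicate 1) and 17.2% (replicate 4 of the full combination). In all, 18 members reached 10% of the Ighv reads of some library and 37 reached 5%.

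**Figure D3:**
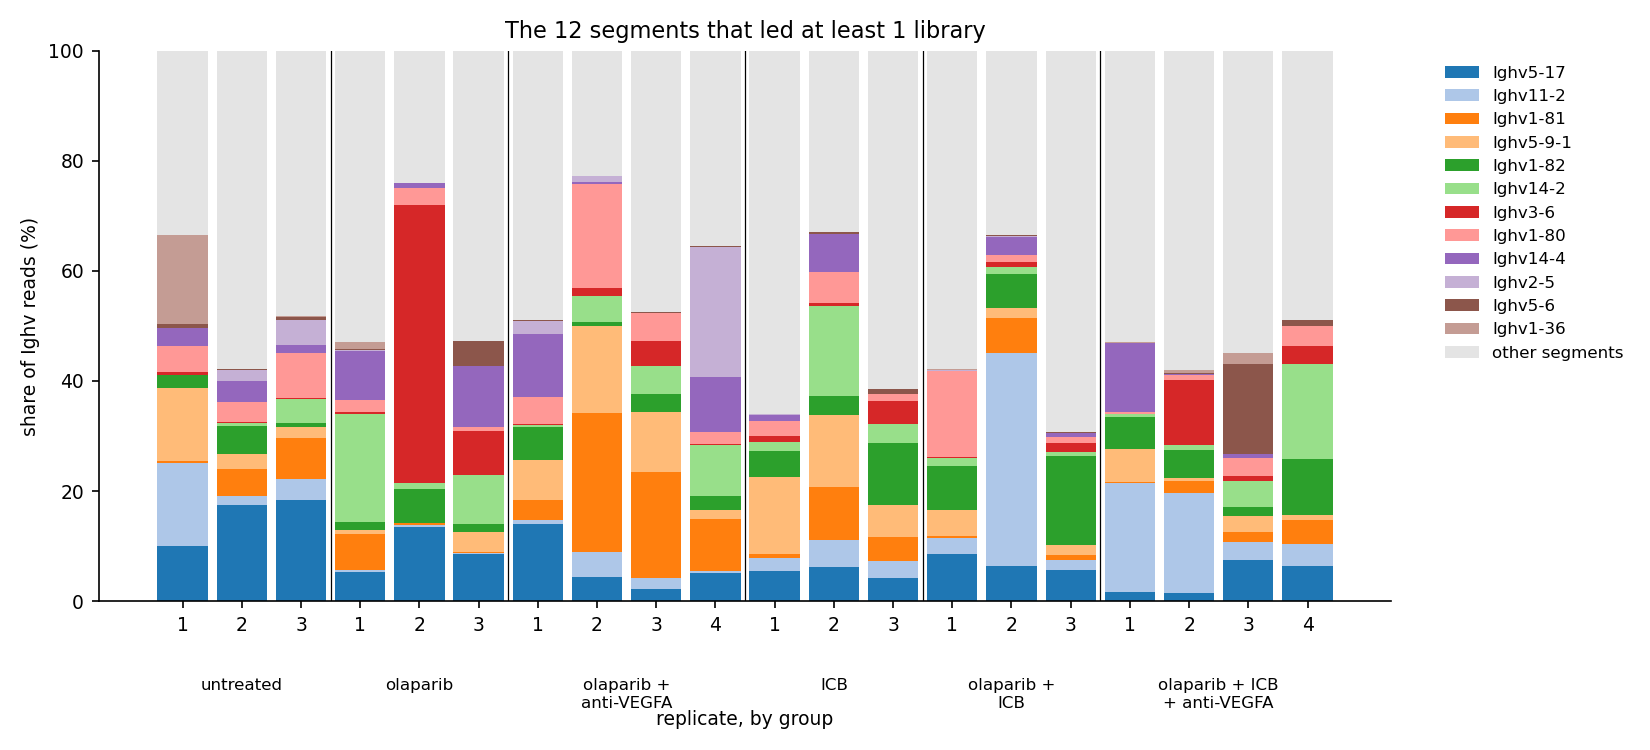
Share of Ighv reads (%) taken in each library by the 12 segments that led at least 1 library, stacked, with all other segments in grey; libraries are ordered by group. Single segments stand out in single mice, such as Ighv3-6 in olaparib replicate 2 (50.4%) and Ighv11-2 in replicate 2 of olaparib with ICB (38.6%).

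Mice of a group shared little more of their usage than mice of different groups. The shared usage of a pair of libraries, the sum over segments of the smaller of the pair's shares, had a median of 42.7% over the 24 pairs within groups (28.2 to 60.4%) and 38.2% over the 166 pairs between groups (22.9 to 61.1%). Pairs in which both mice had ICB shared a median of 45.2% (45 pairs), pairs in which neither had it 38.2% (45) and mixed pairs 36.2% (100). These are descriptions, since pairs that share a library are not independent.

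By family, the segments of Ighv1, also called J558, with 55 members, held a median of 46.5% of Ighv reads (21.5 to 63.2%). The Ighv5 family, with 11 members, held 14.7% (4.92 to 27.4%), Ighv14, with 4 members, 8.23% (1.67 to 30.0%) and Ighv2, with 9 members, 4.83% (0.155 to 25.5%). The Ighv8 family, with 9 members, described here after its values were seen, held 0.423 to 0.963% in the 3 untreated tumours and 6.97 to 10.4% in the 3 with ICB alone, with no overlap. With the olaparib background its share was 1.39 to 1.93% without ICB and 3.27 to 7.12% with it, and with anti-VEGFA as well 1.73 to 4.12% and 2.28 to 4.38%, where the groups overlapped.

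All 115 members lay on the minus strand of chromosome 12 over 2427.1 kb (113572927 to 116000461), with the end nearest the D segments at the lowest coordinates. The 56 members within 1000 kb of that end held 38.0 to 66.6% of Ighv reads with ICB and 35.2 to 77.1% without. Both ends of the locus were thus used in all groups: Ighv5-17 lies 286 kb from the first member, and Ighv1-82 belongs to the far end.

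**Figure D4:**
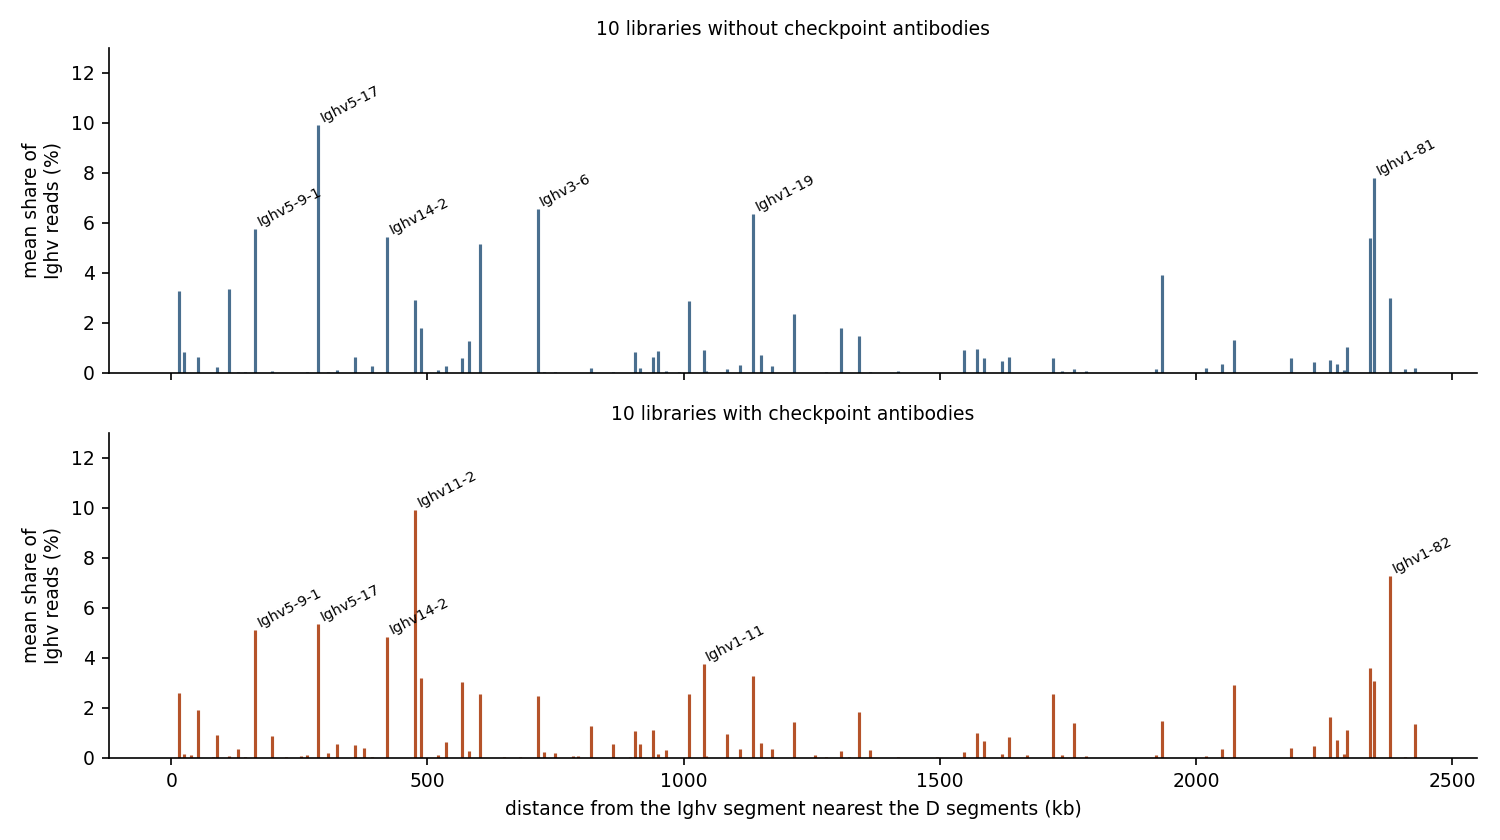
Mean share of Ighv reads (%) of each segment against its distance (kb) from the segment nearest the D segments, over the 10 libraries without (top) and the 10 with (bottom) checkpoint antibodies; the 6 largest of each are named. Ighv5-17 is tallest without ICB (9.90%) and Ighv11-2 with it (9.89%), and segments are in use along the whole 2427.1 kb.

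For tests of single segments, counts of all genes were fitted together and 91 of the 115 members passed the filter on low counts. A segment read almost only in treated mice passes that filter through those mice, so counts among the 91 say nothing about the other 24. A segment that passed in this way could hardly be called lower. Shares of members called higher are therefore set beside those of all genes as a description only. Against untreated tumours, olaparib alone gave 0 called members at an adjusted p under 0.05 (smallest adjusted p 0.0753 by edgeR), with 27 at an unadjusted p under 0.05; over all genes 0.0551% were called higher and 0.011% lower, 0.0661% in all. DESeq2's Wald test called 8 members, edgeR without the filter 3 and edgeR on the compared groups alone 2. Over all genes these fits called 345, 70 and 171, against 12 in the main fit. The median log2 change of the 91 was 2.36 (-0.01 over all genes), and 1.86 as a log2 ratio of group sums in which a group at 0 was given 3 reads. Libraries with olaparib lay wholly above the untreated ones for 15 of the 91 members (11.2% of all genes did) and wholly below for 2 (8.61%).

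ICB alone raised 4 of 91 members and lowered 0, against 1.23% of all genes called higher and 0.976% lower. These were Ighv8-12, Ighv4-1, Ighv8-8 and Ighv2-6-8, the last named because the count is small. Ighv2-6-8 had 10 reads in 0 libraries without ICB and passed the filter through those with ICB, so its call is not used as support. Ighv8-12 was 0.535, 2.18 and 9.26 CPM in untreated tumours and 117, 128 and 134 CPM with ICB, so the groups did not overlap. Its log2 change was 4.99 ± 0.96 (adjusted p 0.0154 by edgeR). Ighv8-8 went from 4.88, 1.21 and 0.198 CPM to 113, 76.3 and 28.2 CPM, a log2 change of 5.10 ± 1.31 (adjusted p 0.0493). Ighv8-12 lost its call without untreated replicate 2 (adjusted p 0.0675). Ighv8-8 lost it without any 1 of the 6 libraries compared (adjusted p 0.0506 to 0.163), and Ighv4-1 without any 1 untreated library (0.0668 to 0.0838) or ICB replicate 3 (0.0595). Ighv2-6-8 also lost its call without any 1 untreated library, without ICB replicate 1 or without ICB replicate 2. The count of called members fell to 1, 0 and 1 without untreated replicate 1, 2 or 3 and to 2 without any 1 of the ICB replicates, and it rose to 24 by DESeq2's Wald test, 12 without the filter and 11 on the compared groups alone. Over all genes 400 were called in the main fit. Leaving out an untreated library gave 182, 72 and 137, and leaving out an ICB library 148, 106 and 316. The other 3 fits gave 1031, 420 and 287 of all genes. With the RNA quality score as a covariate, an alternative chosen after seeing the data, the count was 0 of members and 0 of all genes, and that score did not overlap between these groups. Without any overlap, 35 of the 91 members lay above untreated tumours (11.7% of all genes) and 0 below (10.4%). The median log2 change was 2.86 (0.00 over all genes), and 2.81 with the 3-read floor.

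Olaparib with ICB raised 27 of 91 members (29.7%) and lowered 0, against 9.58% and 6.52% of all genes. Ighv9-3 was 1.32, 4.00 and 0.198 CPM in untreated tumours and 156, 112 and 720 CPM with the pair of treatments. Its log2 change was 7.49 ± 1.73 (adjusted p 0.00704 by edgeR). Ighv5-12 had 21 reads in the 3 untreated libraries and 4997 in the 3 treated ones, a log2 change of 7.74 ± 1.54 (adjusted p 0.00263). Ighv9-4 had 0 and 2257 reads, 2167 of them in replicate 3 of olaparib with ICB. Summed over the mice it was at least 712-fold higher, with the untreated group set at 3 reads in all. It had at least 10 reads in all 10 libraries with ICB and in 2 of those without. Ighv9-4 thus passed the filter through the libraries with ICB, and its call is not used as support. It was uneven within the group, at 1.66, 1.02 and 71.7 CPM, and its call was lost without the third of these mice (adjusted p 0.186 by edgeR) or without any 1 untreated library (0.0623 to 0.064). Without untreated replicate 1, 2 or 3 the count was 16, 13 and 13, and without replicate 3 of olaparib with ICB it was 16. All genes called, 2922 in the main fit, were 2113, 2021, 2060 and 1337 in these fits. With the RNA quality covariate 2 members stayed called, and 629 of all genes were called. Ighv9-3 and Ighv5-12 each lost their call in 1 of the 13 alternatives run. No overlap above untreated tumours was seen for 46 members (17.5% of all genes). The median log2 change was 3.799 (-0.02 over all genes), and 3.65 with the floor.

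Olaparib with anti-VEGFA raised 7 of 91 members (7.69%) and lowered 2 (2.20%), against 9.99% and 7.8% of all genes, a share near the background. Ighv8-12 was the steadiest, at 162, 66.5, 19.8 and 119 CPM against 0.535, 2.18 and 9.26 CPM in untreated tumours, a log2 change of 4.53 ± 0.93 (adjusted p 0.00323 by edgeR). Of the 9 calls, 5 rested on 1 mouse each. Ighv1-84 had 64.3 CPM in replicate 4 and at most 0.109 CPM in the other 3, and without that replicate its adjusted p was 0.153. Ighv1-20, which fell, had 58.5 CPM in untreated replicate 2 and at most 0.094 CPM in the other 2, and without that replicate its adjusted p was 0.955. Ighv3-1 had 134 CPM in replicate 1 (adjusted p 0.976 without it) and Ighv2-9 14.3 CPM in replicate 4 (0.689 without it). Ighv1-47, which fell, had 6.98 CPM in untreated replicate 3 (0.445 without it). Ighv8-8 and Ighv5-16 also lost their calls without any of 4 single libraries each. Without the 2 libraries of this group with acinar RNA and the 2 elsewhere, 3 members were called. Without untreated replicate 1, 2 or 3 the count was 5, 4 and 4, without replicate 4 of the treated group it was 6, and with the RNA quality covariate it was 0. All genes called, 3228 in the main fit, were 2454 without the libraries with acinar RNA and 0 with the covariate. Without the single libraries just named they were 2236, 2233, 1991 and 2393. No overlap above untreated tumours was seen for 10 members (14.2% of all genes). The median log2 change was 2.32 (-0.02 over all genes), and 2.43 with the floor.

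The full combination raised 31 of 91 members (34.1%) and lowered 0, against 12.6% and 11.5% of all genes. Ighv6-6 was 0.0315, 0.0336 and 0.397 CPM in untreated tumours and 81.2, 23.0, 14.3 and 2.97 CPM with the combination. Its log2 change was 7.60 ± 1.62 (adjusted p 0.003 by edgeR). Ighv4-1 went from 0.220, 0.0672 and 0.198 CPM to 49.6, 10.2, 5.70 and 12.8 CPM, a log2 change of 6.87 ± 1.30 (adjusted p 0.00127). Neither segment overlapped between the groups, and both calls held in all 14 alternatives run. Ighv1-15 had 615 CPM in replicate 3 and 0.862 to 11.7 CPM in the other 3, above 0.0672 to 0.220 CPM in untreated tumours (log2 change 10.19 ± 2.51, adjusted p 0.00739). Without untreated replicate 1, 2 or 3 the count was 17, 15 and 17, and with the RNA quality covariate it was 13. Over all genes these fits called 3260, 2877, 3170 and 2470, against 4384 in the main fit. No overlap above untreated tumours was seen for 35 members (14.9% of all genes). The median log2 change was 3.71 (-0.02 over all genes), and 3.53 with the floor. These 5 comparisons share the untreated tumours, so their values are given side by side and no overlap between their calls was computed.

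Comparing the 10 tumours with ICB to the 10 without, matched on the other drugs, gave the most calls in the main fit. It draws on more libraries than the comparisons with untreated tumours. The full combination against untreated tumours gave more calls by DESeq2's Wald test, without the filter and without libraries with acinar RNA. It gave fewer with a replicate block and with the RNA quality covariate. Averaged over the 3 backgrounds, 35 of 91 members (38.5%) rose and 1 fell, against 7.26% and 6.88% of all genes. Some of the 91, such as Ighv13-2, Ighv5-15 and Ighv7-4, had 10 reads in 0 libraries without ICB. They passed the filter through the libraries with ICB and could hardly be called lower, so the 38.5% is partly set by the filter. The median log2 change was 1.96 (0.01 over all genes). When each library was left out in turn the count of called members was 26 to 35, and the smallest was without replicate 3 of olaparib with ICB. Over the other alternatives it was 34 to 38, except 25 without the libraries with acinar RNA and 24 with the RNA quality covariate, and all 24 were among the 36. All genes called, 2567 in the main fit, were 1787 without the libraries with acinar RNA and 1735 with the covariate. Without replicate 3 of olaparib with ICB they were 1528.

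Ighv4-1, the main member of a small family, was 6.19, 0.498 and 34.2 CPM with ICB, 6.66, 1.82 and 5.62 with olaparib and ICB, and 49.6, 10.2, 5.70 and 12.8 with the full combination. The matching groups without ICB held 0.220, 0.0672 and 0.198, then 0.259, 0.193 and 0.763, and then 0.678, 0.383, 0.547 and 0.189 CPM. Only ICB replicate 2 fell within the range of the tumours without ICB. The log2 change was 5.10 ± 0.67 (adjusted p 0.000198 by edgeR, n = 20), the smallest adjusted p of any member, and the call held in all 26 alternatives with an adjusted p of at most 0.00166. As a share of Ighv reads it went from 0.0044 to 0.0326% without ICB to 0.0185 to 1.46% with it.

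Ighv2-6-8, chosen for mention after its values were seen, passed the filter on low counts through the libraries with ICB, so its level is given as a description. Of the 91 members it was the 1 with no overlap above the tumours without ICB (0.0661% of all genes), and nothing is read from that count. It had at least 10 reads in 9 of the 10 libraries with ICB and in 0 of the 10 without. It was a rare segment, at 0.246 to 3.87 CPM with ICB (median 0.907) and 0 to 0.0964 CPM without. Its nearest copy, Ighv2-9, is 96.1% identical over the coding V exon.

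Of the 4 segments named above as known from B-1 cells, natural antibodies or the fetal repertoire, 3 rose with ICB in this contrast and Ighv5-2 did not pass the test. The list they come from also held Ighv6-6, for which no such role is given here, and which rose. Ighv11-2 was 49.95 to 1242 CPM with ICB (median 138) and 5.12 to 121 CPM without (median 22.0), with overlap, and its log2 change was 3.04 ± 0.56 (adjusted p 0.0027 by edgeR). Its level by group was 54.6 ± 51.2 CPM without treatment and 85.3 ± 44.3 with ICB, 9.69 ± 4.02 with olaparib and 493 ± 649 with olaparib and ICB, and 59.2 ± 47.5 with olaparib and anti-VEGFA and 418 ± 342 with the full combination. The change with ICB alone, 0.64 ± 0.94, did not pass the test (adjusted p 0.786), and its difference from the change under olaparib, 5.03 ± 1.40, did not either (adjusted p 0.958, unadjusted p 0.00214). Ighv7-1 was 2.24 to 56.8 CPM with ICB and 0.151 to 3.98 without, a log2 change of 3.60 ± 0.52 (adjusted p 0.000443), and Ighv6-6 was 1.23 to 81.2 and 0.0315 to 5.45 CPM (4.82 ± 0.79, adjusted p 0.00121). Ighv12-3 was rarer, at 0.266 to 12.4 CPM with ICB and 0.0944 to 0.691 without (2.54 ± 0.59, adjusted p 0.00895). The 4 calls held in all 26 alternatives. Ighv5-2, at 0 to 1.31 CPM with ICB and 0 to 0.413 without, changed by 1.40 ± 0.79 (adjusted p 0.254).

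The mean level of these 5 listed segments was 1.41 to 3.98 log2 CPM in the 10 tumours with ICB and -0.82 to 0.97 in the 10 without, and did not overlap. The list was chosen with earlier results of these data known, and 1 of its segments has no B-1 or fetal role given here. The score was not set beside a background of all genes, so the lack of overlap is a description only. Against untreated tumours, 0 of the 5 were called with ICB alone, 4 with olaparib and ICB, and 4 with the full combination. All 5 are members, and 4 of them are in the count of 35 given above. Ighm, the constant region of unswitched heavy chains, was uneven beside Ighv11-2. Its share of constant region CPM was highest, at 81.4%, in replicate 2 of the full combination, where Ighv11-2 led, and next highest, at 70.3%, in replicate 2 of olaparib with ICB, where Ighv11-2 took 38.6%. It was 50.7% in replicate 1 of the full combination, where Ighv11-2 led at 19.8%. It was 61.1% and 58.3% in replicate 3 of olaparib with ICB and ICB replicate 3, where Ighv11-2 took 1.78% and 3.03%. The libraries do not link a V segment to a constant region, so whether these were the same transcripts was not tested. Ighv1-72, the NP segment, changed by 0.42 ± 0.78 (adjusted p 0.761), at 3.33 to 40.0 CPM with ICB and 0.235 to 42.4 without.

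**Figure D5:**
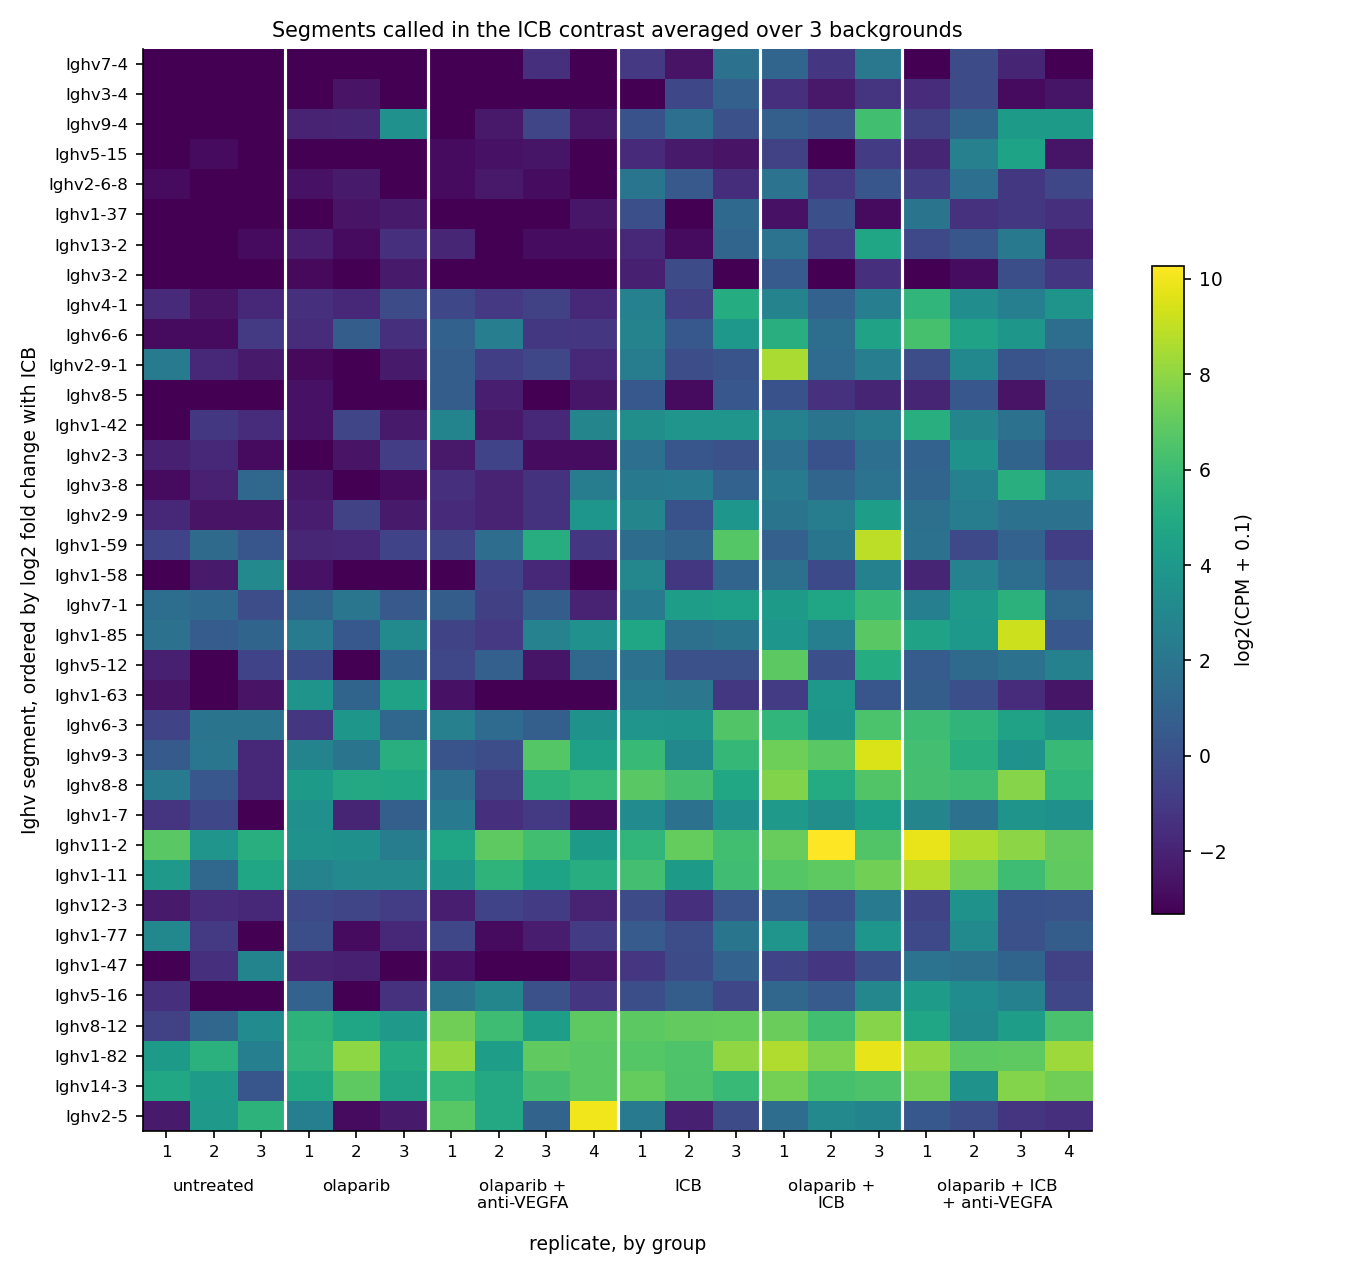
log2(CPM + 0.1) of the 36 segments called in the ICB contrast averaged over 3 backgrounds (rows, by log2 change, the single lower one last) in the 20 libraries (columns, by group). Ighv4-1, Ighv6-6 and Ighv7-1 are brighter in most of the 10 right-hand columns, with ICB, than in the 10 on the left, while Ighv9-4 is bright in a few mice.

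Among the segments with large shares, calls were few in this contrast. Of the 10 with the largest mean shares, Ighv11-2 and Ighv1-82 rose. Ighv1-82 was 93.4 to 878 CPM with ICB (median 232) and 5.65 to 284 without (median 45.2), a log2 change of 1.88 ± 0.50 (adjusted p 0.0182 by edgeR), and the call held in all 26 alternatives. Its close copy Ighv1-80 changed by 0.46 ± 0.60 (adjusted p 0.661). The difference between these 2 copies was not tested. Ighv5-17 changed by -0.11 ± 0.44 (adjusted p 0.898) and Ighv3-6 by 0.50 ± 0.81 (adjusted p 0.729). The 1 member that fell, Ighv2-5, was 0.133 to 8.46 CPM with ICB and 0.0321 to 1001 without, a log2 change of -3.52 ± 1.01 (adjusted p 0.0282). That call was lost without any 1 of 7 libraries. Its adjusted p was 0.711 without olaparib replicate 1, 0.0601 without untreated replicate 3, 0.0578 without replicate 4 of olaparib with anti-VEGFA, 0.0547 and 0.0513 without ICB replicates 2 and 3, and 0.0503 and 0.0594 without replicates 1 and 3 of olaparib with ICB.

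Whether the change with ICB itself differed by background was tested for each segment. The interaction of ICB with olaparib gave 0 called members (smallest adjusted p 0.958 by edgeR) and 0% of all genes, with 19 members at an unadjusted p under 0.05. That of ICB with anti-VEGFA, all under olaparib, gave 0 (smallest adjusted p 0.595) and 0% of all genes, with 23 members at an unadjusted p under 0.05. DESeq2's Wald test called 1 member in each, and 8 and 17 of all genes in the same order. These tests do not show that the changes were alike.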

How the data were processed

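Total RNA of 20 tumours was sequenced with a stranded kit after removal of cytoplasmic RNA species, per the labels' protocols. The deposited gene counts were made by the authors with STAR and HTSeq on GRCm38, per the submitters' processing notes; versions, annotation release, strand setting and the handling of reads that fit several segments are not given in the sources used here. Ensembl identifiers were named from GENCODE M21 (55227 of 55406 matched). The members, gene lists and tests were chosen with earlier results of these data known. Libraries were grouped by their titles. The p-values measure the spread between the mice as labelled.

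From the counts, edgeR 4.0.16 in R 4.3.3 fitted all 20 libraries with the treatment group as the only term. The fit used TMM scaling, filterByExpr (minimum count 10, minimum total 15; 18144 genes tested), the quasi-likelihood F test and Benjamini-Hochberg adjustment over all genes tested, called under 0.05. Errors beside log2 changes are standard errors and others SDs. The filter left out 0.0432 to 0.0518% of counts. DESeq2 1.42.0 was an alternative. The fits were tested on simulated counts with set changes in genes above a minimum mean level. That simulation did not include segments high in a single mouse, so it does not bear on calls of such segments. Segments named were the 10 with the largest mean share, leaders, those at 10% or more of a library, up to 6 called members each way per contrast with a mean of at least 1 CPM, the listed B-1, fetal and NP segments and those next to the rule's threshold; others are marked. Sums, effective numbers and shares were described without a test.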

Additional observations from a re-analysis of the deposited data

Results flagged for a closer look

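In groups of 4 mice, a library was picked out when it stood apart from the other 3 by more than Dixon's 95% critical value of 0.829. Of 84 values tested, 21 (25.0%) met this. Chance gives about 1 in 20 for normally distributed values, but CPM is skewed and many of these segments were named for a high share in a single library, so this count is not read against chance. All but 1 were high values of single segments in single mice.

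In the full combination, replicate 3 stood apart for Ighv5-6 (1176 CPM), Ighv1-15 (615 CPM), Ighv1-20 (368 CPM), Ighv1-76 (242 CPM), Ighv8-8 (221 CPM) and Ighv1-36 (148 CPM). This was also the library with the most Ighv reads, 222615. Replicate 1 stood apart for Ighv14-4 (571.5 CPM) and Ighv4-1 (49.6 CPM). Replicate 2, which held acinar RNA, stood apart for Ighv12-3 (12.4 CPM), Ighv2-9-1 (8.06 CPM) and Ighv2-9 (5.14 CPM).

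With olaparib and anti-VEGFA, replicate 4, with acinar RNA, stood apart for Ighv2-5 (1001 CPM), Ighv1-84 (64.3 CPM), Ighv1-72 (32.7 CPM) and Ighv2-9 (14.3 CPM). Replicate 1, also with acinar RNA, stood apart for Ighv3-1 (134 CPM), Ighv1-31 (1.12 CPM) and Ighv5-2 (0.383 CPM), and for summed Ighv CPM at 33.6% of constant region CPM. Replicate 3 stood apart for Ighv9-4 (0.620 CPM) and Ighv7-4 (0.255 CPM). Whether acinar RNA had a part in these values was not tested.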

How the results depend on the processing

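The counts of called members were 0 (olaparib), 4 (ICB), 27 (olaparib with ICB), 9 (olaparib with anti-VEGFA), 31 (full combination) and 36 (ICB averaged over 3 backgrounds). Over all genes they were 12, 400, 2922, 3228, 4384 and 2567. In that order, DESeq2's Wald test gave 8, 24, 35, 25, 44 and 38 members, and 1 in each interaction. Over all genes it gave 345, 1031, 3444, 3767, 4737 and 3147, and 8 and 17 in the interactions with olaparib and anti-VEGFA. Without the filter on low counts the members called were 3, 12, 29, 15, 39 and 38 (70, 420, 2354, 2522, 3483 and 2068 of all genes). On the compared groups alone the first 5 were 2, 11, 32, 7 and 31 (171, 287, 2241, 2449 and 3039 of all genes). Without libraries with acinar RNA they were 0, 5, 28, 3, 34 and 25, and with the RNA quality covariate, chosen after seeing the data, 0, 0, 2, 0, 13 and 24. Over all genes these 2 alternatives gave 0, 356, 3121, 2454, 3746 and 1787, and 0, 0, 629, 0, 2470 and 1735. DESeq2's size factors changed no count of members. Leaving out 1 library gave 0 to 2 for ICB, 13 to 24 for olaparib with ICB, 4 to 13 for olaparib with anti-VEGFA, 15 to 32 for the full combination, 26 to 35 for the average and 0 for olaparib and both interactions. The cause was not tested.

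With a replicate block the counts were 0, 4, 22, 5, 32 and 34. The labels give no reason for shared numbers, and same-numbered mice deviated together in only 4 of 46 pairs (r above 0.1; -0.219 to 0.173), with 6 of 20 libraries closest to their own number, so no pairing was assumed.

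Of 42 tests of named segments, 13 kept their direction and side of the threshold in every alternative. Ighv3-1 with olaparib and anti-VEGFA reversed to -2.46 (adjusted p 0.587) without acinar libraries. Ighv3-6 in the averaged contrast, not called, changed sign there (-0.53), as did Ighv5-17 (0.54), which was also 0.12 without olaparib replicate 2, 0.21 without replicate 1 of olaparib with anti-VEGFA, 0.01 without replicate 2 of the full combination and 0.23 with the RNA quality covariate. Leaving out 1 library gave -0.46 to 0.21 for Ighv5-17, and adjusted p was 0.361 to 0.99 in the fits that reversed, by edgeR.

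Without each library's leading segment, summed Ighv CPM was 697.1 without treatment, 2260 with olaparib and 2084 with ICB. The inverse Simpson index gave 11.4 segments without treatment, 18.9 with ICB, 10.3 with olaparib, 11.9 with olaparib and ICB, 10.9 with olaparib and anti-VEGFA and 14.4 with the full combination. Expected segments at 23565 reads were 70.4, 70.5, 86.9, 90.3, 70.0 and 89.2 for no treatment, olaparib, ICB, olaparib with ICB, olaparib with anti-VEGFA and the full combination. Below 10 reads a segment's presence was not resolved at this depth.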
